A study of Mus musculus with 8 samples.

Results

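Floxed alleles of Adar on both chromosomes were compared with wild-type alleles in mouse liver cells, 3 libraries against 3, which are 6 of the 8 libraries of the series. The members were taken by the genotype in the sample titles: Ifih1-/- Adar1flox/flox Alb-Cre+ mice (called flox/flox here) and Ifih1-/- Adar1wt/wt Alb-Cre+ mice (called wt/wt). All mice were C57BL/6, and both groups lacked Ifih1 and carried Alb-Cre, so the control group is not a plain wild type. In each group the mice of replicates 1, 2 and 3 were 11, 9 and 7 weeks old, labelled male, male and female in wt/wt and female, male and female in flox/flox. Another group of 2 mice with 1 floxed allele (wt/flox) entered the fit to share the estimate of spread, and its levels stand beside some results as a description. The wt/flox mice were 11 and 9 weeks old and both labelled male, so that group had no female and no mouse of 7 weeks. By the design text of the series there were 2 flox/flox mice, while 3 samples have that title. Livers were digested with collagenase and the cells were spun at low speed, freed of red cells and passed over Percoll, per the labels' protocols, which enriches hepatocytes. The albumin promoter drives Cre in cells of the hepatocyte lineage, so other liver cells in the pellet keep their Adar alleles.

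Adar encodes ADAR1, an enzyme that deaminates adenosine to inosine in double-stranded RNA. Inosines mark a cell's own RNA duplexes, and without them the cytosolic sensor MDA5, the product of Ifih1, can bind such duplexes and start an interferon response through MAVS. Mice without Adar die as embryos and loss of MDA5 delays that death, which is the setting of an Ifih1-null background. In hepatocytes, loss of ADAR1 is known to cause inflammation and cell death in the liver. ADAR1 also has functions apart from MDA5, among them restraint of the kinase PKR and of the nucleic acid sensor ZBP1.

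The 6 libraries compared held 82967317 to 132303735 sense reads in genes. Several features of the libraries differed between the 2 groups. Reads in no gene made up 22.2% to 28.1% of sense reads in wt/wt and 34.5% to 40.01% in flox/flox, alignments to several places 8.97% to 10.9% and 3.92% to 4.32%, and the 10 largest genes 19.6% to 22.4% and 26.6% to 32.2% of gene reads. For these measures the groups did not overlap, and an exact permutation test gave p = 0.1 for each, the smallest that 3 against 3 allows (two-sided, 0.14 after Benjamini-Hochberg adjustment over 7 measures). The names of the deposited tables carry a batch2 mark for all flox/flox and wt/flox libraries and none for the wt/wt libraries, so batch and genotype cannot be told apart in any result below. The wt/flox libraries had 31.7% and 37.3% of reads in no gene and 4.98% and 4.89% of alignments to several places. Their 10 largest genes held 25.5% and 25.8% of gene reads. In each of these measures they lay outside the wt/wt range, on the flox/flox side. The labelled sex was contradicted in 2 libraries. Replicate 1 of flox/flox, female by its label, had 31 reads of Xist, the transcript of the silenced X chromosome, beside 21255 reads of 4 Y-linked genes. Replicate 2 of flox/flox, male by its label, had 246646 Xist reads beside 0 from the Y-linked genes. The fit therefore used the sex shown by these transcripts, by which 2 wt/wt and 1 flox/flox libraries were male. The first principal component of the 8 libraries (39.7% of the variance) separated them by these transcripts, and the second (27.3%) set wt/wt apart from the rest. Whether the labels of these 2 libraries were exchanged, with their ages and replicate numbers, cannot be told from the files. Nothing in the labels says whether the mice of a group came from separate litters or days, so p-values measure the spread between these samples.

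Whole-gene reads of Adar (chromosome 3, 89715022 to 89753446, GRCm38) did not separate the groups. The level, in counts per 1000000 reads (CPM, scaled by TMM-adjusted library size), was 28.1, 30.01 and 53.6 in wt/wt against 49.4, 35.9 and 42.1 in flox/flox, in the order of replicates 1, 2 and 3 as throughout. The ranges overlapped, and the fitted log2 fold change of flox/flox over wt/wt was 0.15 (SE 0.27, edgeR adjusted p = 0.693). The floxed exons are not named in the labels, and reads from exons outside the deleted part as well as from non-parenchymal cells enter this total, so it does not check the genotype. Reads of Ifih1 numbered 0 to 4 in each library, too few for a test. A gene is said to rise, fall or be called where its edgeR p, adjusted over all genes tested by the Benjamini-Hochberg method, was under 0.05. A gene that was not called is not thereby shown to be unchanged. Of the 11 tested RNA editing enzymes and cofactors edgeR called 0 (3 had an unadjusted p under 0.05), as did DESeq2, while limma-voom called 1 lower. Adarb1, the second catalytically active editing enzyme, was 13, 9.61 and 9.52 CPM in wt/wt against 14.4, 11.2 and 12.99 in flox/flox (edgeR adjusted p = 0.123), and A1cf, the cofactor of apolipoprotein B editing, was 261, 280.4 and 258 and 228, 309.5 and 257 (edgeR adjusted p = 0.785).

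The material carried the transcripts of hepatocytes in every library. The 26 hepatocyte markers summed to 148563, 166407 and 173963 CPM in wt/wt against 232001, 319614 and 238417 in flox/flox, without overlap. Of the 26, 6 rose, 3 fell (Ass1, Apoa2 and Arg1) and 17 were not called, and with any 1 library left out 1 to 5 rose and 0 to 2 fell. Without both libraries of contradicted sex 0 rose and 0 fell. Alb, which encodes albumin, was 63587, 76433 and 79946 and 98247, 171684 and 117734 CPM, also without overlap but not past the threshold (log2 fold change 0.67, edgeR adjusted p = 0.103). Markers of sinusoidal endothelial cells, which line the liver's capillaries, were lower in flox/flox: 21 of 30 fell and 0 rose, with a median log2 fold change of -1.21. For comparison, 14.6% of all tested genes fell, 14.5% rose and the median over all was 0.01. A negative median was not particular to endothelial markers. Medians were -1.25 for monocyte and recruited macrophage markers, -0.88 for Kupffer cells and -1.49 for neutrophils. They were -1.05 for T and NK cells, -1.24 for B and plasma cells and -0.97 for stellate cells and fibroblasts, but 0.48 for cholangiocytes. In bulk samples fewer cells of a type and less RNA per cell cannot be told apart. The markers' sum was 420.2, 381 and 562 CPM in wt/wt against 162, 247 and 330.2 in flox/flox. Ehd3, a membrane-trafficking gene of these cells, was 30.4, 28.8 and 41.8 CPM in wt/wt against 8.75, 11.99 and 13.3 in flox/flox, a 3.35-fold fall (edgeR adjusted p = 0.00177). The orphan receptor gene Gpr182 fell 3.88-fold, from 7.32, 6.73 and 10.7 to 1.40, 3.29 and 3.72 CPM, and the lectin gene Clec4g 2.97-fold, from 13.2, 13.1 and 21.9 to 4.05, 6.52 and 9.49. Not every marker of these cells passed the test, and the scavenger receptor gene Stab2 was 38.5, 34.2 and 54.2 against 22.05, 31.4 and 50.2 CPM with overlapping groups (edgeR adjusted p = 0.0671). The count was 12 of 30 without flox/flox replicate 1, the male library of that group by transcripts, 13 with the labelled sex, 14 with no sex term and 7 without both libraries of contradicted sex.

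Immune cell markers were highest in wt/wt replicate 3 among the wt/wt libraries. Of 28 monocyte and recruited macrophage markers 9 fell, and without wt/wt replicate 3 the count was 0 lower and 1 higher, with wt/wt replicate 2 left out it was 2 lower, and with flox/flox replicate 3 left out 4. Their sum was 55.5, 68.6 and 176 CPM in wt/wt against 76.2, 44.2 and 96.2 in flox/flox. Tyrobp, an adaptor of myeloid receptors, was 1.16, 1.06 and 4.49 CPM against 0.489, 0.393 and 1.20, and Cd74, the invariant chain of MHC class II, 8.95, 12.4 and 29.3 against 6.21, 3.68 and 7.85. Of 19 tested Kupffer cell markers 2 fell, Cd163 and C1qc, and 1 rose, Slc40a1, which encodes the iron exporter ferroportin and is expressed by hepatocytes as well. The Kupffer sum overlapped between groups (283, 215 and 682 against 754, 313 and 579.8 CPM), and the resident-macrophage lectin Clec4f was 13.96, 13.5 and 62.8 against 13.6, 8.49 and 29.3. Summed stellate cell and fibroblast markers also overlapped (122, 62.9 and 128 and 60, 73.04 and 144 CPM, 3 of 21 lower), as did neutrophil markers (14.2, 4.54 and 72.5 and 25.3, 22.1 and 47.8, 2 of 9 lower) and T and NK cell markers (4.20, 5.77 and 16.8 and 5.72, 3.16 and 7.71, 1 of 14 lower). Those of B and plasma cells did too (1.79, 2.38 and 7.59 and 3.70, 2.14 and 2.70, 2 of 7 lower). Cholangiocyte markers summed to 151, 161 and 152 and 334, 292 and 292 CPM without overlap, with 2 of 14 higher, Atp1b1 and Pkhd1. The defining cholangiocyte keratin Krt19 was 0.0913, 0.186 and 0.0730 and 0, 0.0715 and 0.0835 CPM. Erythroid and platelet markers summed to 104, 95.1 and 8.46 and 50.4, 7.35 and 11.1 CPM with 1 of 4 tested members called each way, and Hbb-bs, Hbb-bt and Hba-a1 had 0 reads in all 8 libraries. Of all tested genes 14.6% fell and 14.5% rose, and nothing is read from marker counts near or below those shares. Most of these small counts moved with 1 library. Kupffer cell falls numbered 5 with flox/flox replicate 2 left out and 0 with wt/wt replicate 2, wt/wt replicate 3 or flox/flox replicate 3 left out, and 9 with the labelled sex. Rises in the Kupffer list ran from 0 to 2 with 1 library left out. Stellate cell falls numbered 9 with flox/flox replicate 3 left out and 0 or 1 with any other library left out. Over the same alternatives neutrophil falls ran from 1 to 3, those of T and NK cells from 0 to 1 and those of B and plasma cells from 0 to 2, and cholangiocyte rises from 1 to 3. Whether these cells contributed to the gene groups below was not tested.

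Of 14728 genes tested, 2139 (14.5%) were higher and 2143 (14.6%) lower in flox/flox, together 4282 (29.1%). The smallest adjusted p was 0.00177, and 6308 genes had an unadjusted p under 0.05. Most changes were moderate. The median fold of the called genes was 1.67 among those higher and 1.78 among those lower, and 549 higher and 767 lower genes exceeded 2-fold. The 3 and the 3 libraries did not overlap for 2009 of the higher and 1998 of the lower genes, while 45.0% of all tested genes had no overlap. Scaling by library size alone moved the median log2 fold change by -0.33 and turned the split into 691 higher and 4159 lower, so directions below are relative to the median gene. Leaving out flox/flox replicate 1 lowered the counts to 801 higher and 1010 lower, leaving out wt/wt replicate 2 to 1168 and 1292, and leaving out wt/wt replicate 3 to 1351 and 1234. No gene called in the comparison was called in the opposite direction under any of the 23 alternatives.

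**Figure D1:**
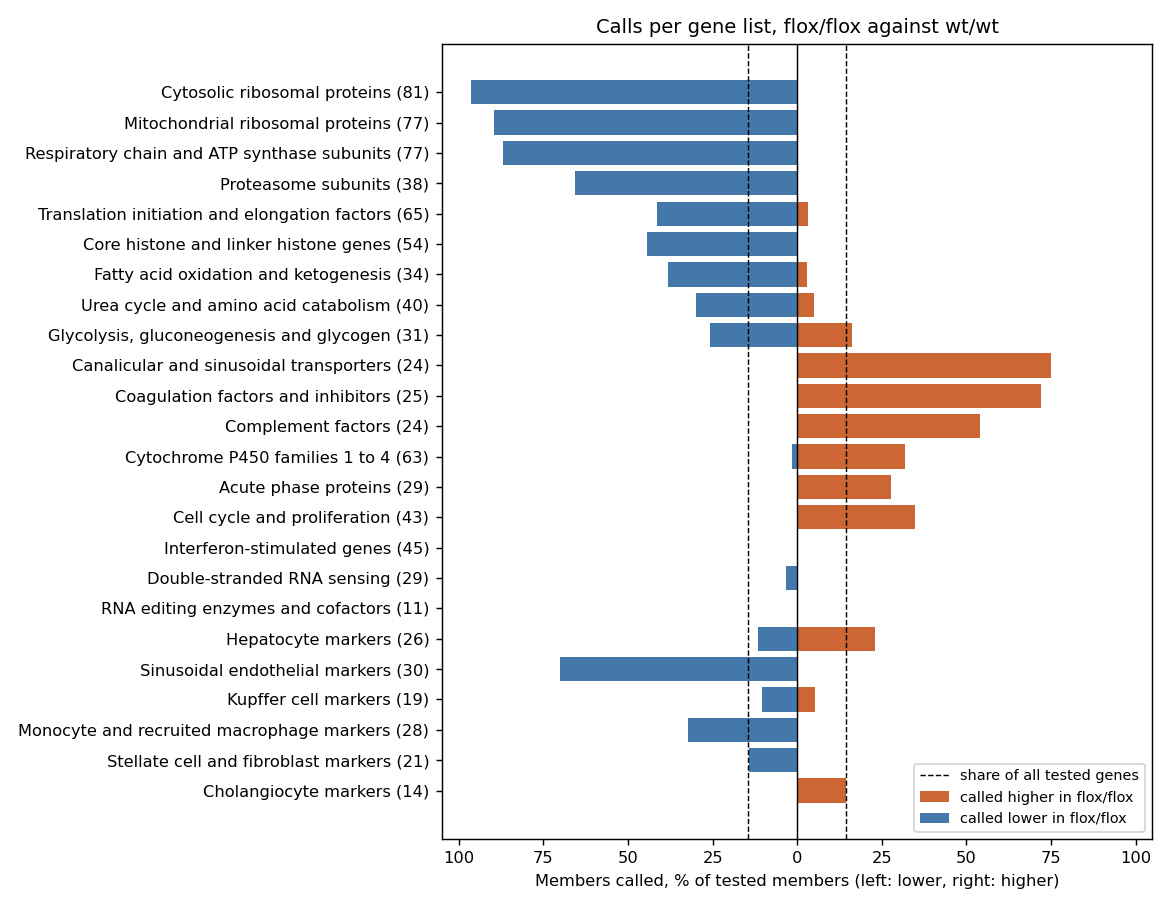
Share of the tested members of 24 gene lists (number tested in brackets) that were called higher (orange, to the right) or lower (blue, to the left) in flox/flox against wt/wt, in percent. Dashed lines mark the shares of all tested genes, 14.5% higher and 14.6% lower. Ribosomal protein and respiratory chain genes lie far to the left, transporter and coagulation genes far to the right, and interferon-stimulated genes have 0 calls.

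The direction of change followed exon length, the summed length of a gene's exons. Among protein-coding genes of 500 to 1000 bases 121 of 238 were lower (50.8%) and 2 higher, with a median log2 fold change of -0.83. Among those of 8000 bases or more 740 of 2360 were higher (31.4%) and 107 lower, with a median of 0.30. The classes between rose in order, from -0.62 at 1000 to 1500 bases through -0.15 at 3000 to 4000 bases to 0.15 at 6000 to 8000 bases. Measured per library against the wt/wt mean, genes of 500 to 1000 bases were at -0.68, -0.69 and -0.66 in flox/flox and at -0.02, 0.07 and -0.07 in wt/wt. The wt/flox libraries, which share the batch mark of the flox/flox libraries, were at -0.44 and -0.56. Medians also fell with GC content, from 0.18 in genes with under 40% GC to -0.29 in genes with 60% or more. With the trend over exon length removed before calling, an alternative given below where it moves a count, 1538 genes were higher and 1635 lower.

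**Figure D2:**
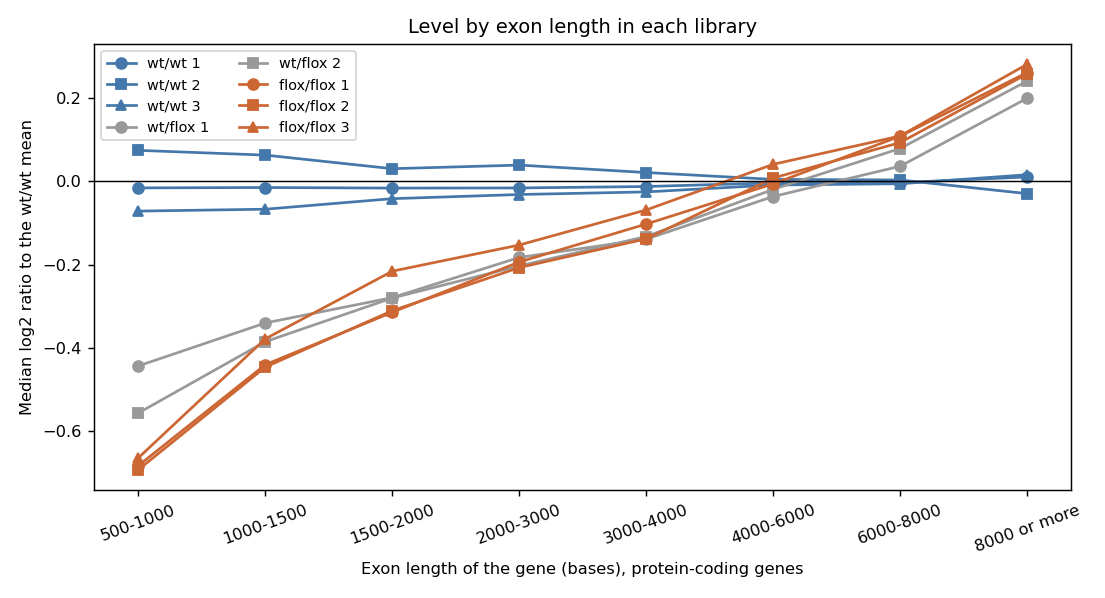
Median log2 ratio of each library to the wt/wt mean (vertical axis) for protein-coding genes by exon length class (horizontal axis, bases), 1 line per library. In genes of 500 to 1000 bases the flox/flox lines lie at -0.69 to -0.66 and in genes of 8000 bases or more at 0.26 to 0.28. The 2 wt/flox lines have the same slope in direction, and the wt/wt lines stay near 0.

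Genes of the protein synthesis machinery were lower in flox/flox. Of 81 tested cytosolic ribosomal protein genes 78 fell and 0 rose, with a median log2 fold change of -1.19. Rps13, of the small subunit, was 41.7, 46.7 and 47.2 CPM in wt/wt against 14.9, 14.04 and 13.3 in flox/flox, a 3.20-fold fall (edgeR adjusted p = 0.00177). Rpl23, of the large subunit, was 87.3, 90.4 and 89.6 and 29.9, 28.2 and 24.8 CPM, a 3.17-fold fall (edgeR adjusted p = 0.00177). In both genes every flox/flox library lay under every wt/wt library by more than the spread of either group. The wt/flox libraries stood between, at 21.5 and 18.2 CPM for Rps13 and 44.5 and 35.99 for Rpl23. The 3 exceptions in the list were Rps27 (log2 fold change 0.13), Rpl32l (0.77) and Rps3a1 (-0.98, SE 1.47), none past the threshold. Many ribosomal protein genes have processed pseudogenes, and since alignments to several places were tallied apart, single values such as those of Rpl36a (4.12-fold lower) and Rps29 (3.64-fold lower) are uncertain. With the length trend removed 67 of the list still fell, and over all 23 alternatives 55 to 78 fell and 0 rose.

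Ribosomal protein mRNAs are known for a 5' terminal run of pyrimidines that begins with C and couples their translation to growth signals, and 4 starts that hold such a run are shown here as examples of it. The windows are 30 bases from RefSeq (GRCm38.p6), 20 before and 10 after the annotated start, with the run of C and T from the start in capitals.
Rpl38 (chr11:114668560-114668589, plus strand): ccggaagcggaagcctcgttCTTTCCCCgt
Rps10 (chr17:27635235-27635264, minus strand): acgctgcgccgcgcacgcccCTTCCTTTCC
Rpl15 (chr14:18270977-18271006, minus strand): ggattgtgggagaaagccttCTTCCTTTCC
Rps18 (chr17:33955656-33955685, minus strand): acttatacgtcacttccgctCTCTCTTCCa
These 4 genes, chosen after their values were seen, fell by 1.60, 1.45, 1.23 and 1.24 on the log2 scale. Rpl38 was 55.7, 67.99 and 64.6 CPM in wt/wt against 21.5, 20.5 and 19.9 in flox/flox, and Rps10 78.4, 98.5 and 81.04 and 32.5, 31.8 and 27.4, without overlap in either gene. A C at the annotated start followed by at least 4 further bases that are each C or T, on the gene's strand, was found in 14 of the 60 ribosomal protein genes with a window (23.3%) and in 304 of 10670 tested protein-coding genes with one (2.85%). Among genes called lower the share was 2.86% once ribosomal protein genes were set aside, and among genes called higher it was 1.93%. Annotated starts can differ from the starts used in liver, so a gene without this run in its window may still have one.

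Genes of the mitochondrial ribosome and the respiratory chain were also lower. Of 77 mitochondrial ribosomal protein genes 69 fell and 0 rose (median -0.78). Mrpl52 was 17.9, 19.01 and 18.8 CPM in wt/wt against 4.40, 4.36 and 4.36 in flox/flox, a 4.25-fold fall (edgeR adjusted p = 0.00177), and the 3 flox/flox values differed from each other by less than the spread in wt/wt. Mrpl42 was 19.8, 22 and 20.1 CPM and 6.81, 7.46 and 7.15. Of 77 nuclear-encoded subunits of the respiratory chain and ATP synthase 67 fell and 0 rose (median -0.92). Among them, Ndufa2 of complex I was 39.1, 42.8 and 33.9 CPM against 12.4, 13.1 and 12.7, Uqcr11 of complex III 82.6, 78.8 and 75.4 against 20.7, 22.4 and 21.8, and Cox5b of complex IV 70.4, 65.95 and 62.6 against 14.6, 14.8 and 15.5. Atp5k and Atp5j2, small subunits of ATP synthase, fell 5.68-fold and 3.64-fold, Atp5k from 12.1, 10.4 and 11.1 to 1.82, 2.30 and 1.94 CPM (edgeR adjusted p = 0.00177). The median exon length was 1675 bases in the respiratory list and 2533 in the mitochondrial ribosome list. With the length trend removed 46 and 56 fell, and in the mitochondrial ribosome list 1 rose. Without flox/flox replicate 1 the counts lower were 45 and 33, and without both libraries of contradicted sex 28 and 30.

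**Figure D3:**
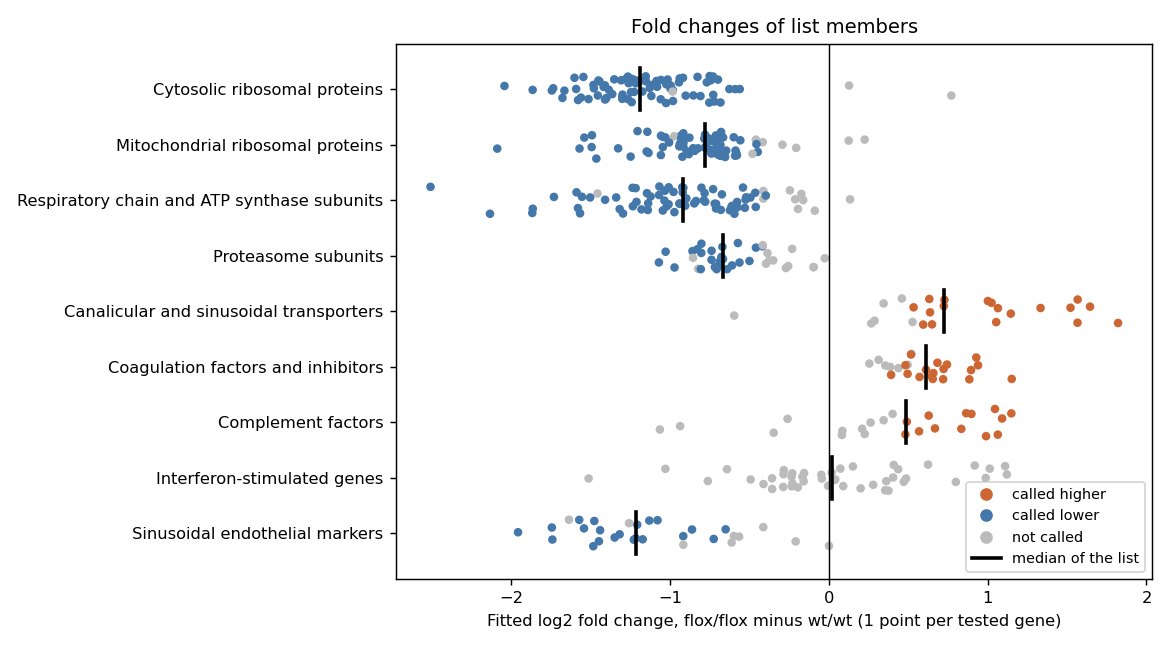
Fitted log2 fold change of flox/flox over wt/wt (horizontal axis) for each tested member of 9 gene lists, with called genes in colour, uncalled genes in grey and the list's median as a black bar. Nearly all members of the ribosomal, respiratory and proteasome lists lie below 0, those of the transporter and coagulation lists above 0, and interferon-stimulated genes spread on both sides with a median of 0.02.

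Proteasome and translation factor genes were lower in part. Of 38 proteasome subunit genes 25 fell and 0 rose (median -0.67). Psmb2, of the catalytic core, was 32.7, 34.8 and 33.2 CPM in wt/wt against 17.5, 15.1 and 13.99 in flox/flox (edgeR adjusted p = 0.00348), and Psmc1, an ATPase of the regulatory particle, was 64.8, 63.6 and 57.7 and 40.4, 33.4 and 32.6 (edgeR adjusted p = 0.00464). The count of falls was 12 with the length trend removed and 7 without wt/wt replicate 3. Of 65 translation factors 27 fell, with the hypusinated factor gene Eif5a at 231, 274 and 238 CPM against 107, 111 and 102. Their falls numbered 6 with wt/wt replicate 3 left out and 16 with wt/wt replicate 2 left out. The 2 that rose were Eif2ak4, which encodes the amino acid sensing kinase GCN2 (11.9, 12.8 and 13.4 against 18.6, 19.9 and 22.4 CPM), and Eif3j1, which has a near-identical copy and is uncertain.

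SR proteins and hnRNPs, which bind pre-mRNA, split, with 6 of 30 higher and 10 lower. Srsf11 was 40.02, 31.3 and 37.96 CPM in wt/wt against 72.1, 59.2 and 59.5 in flox/flox (edgeR adjusted p = 0.00733), whereas Hnrnpab was 101.3, 107 and 104 and 56.4, 49.4 and 38.9 (edgeR adjusted p = 0.00422). The counts were 1 and 3 with flox/flox replicate 1 left out, 3 and 3 with wt/wt replicate 3 left out, and 3 and 5 with wt/wt replicate 2 left out. Of 54 tested histone genes 24 fell and 0 rose, led by the linker histone gene H1f4 at 43.9, 38.02 and 35.7 CPM against 15.02, 12.5 and 14.8. Core histone genes share near-identical sequence and are uncertain. Only 1 histone gene fell once the length trend was removed, 9 without flox/flox replicate 1 and 14 without wt/wt replicate 3.

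Many coagulation and complement genes were higher in flox/flox. Of 25 genes of coagulation factors and their inhibitors 18 rose and 0 fell (median log2 fold change 0.61). F5, the cofactor of prothrombin activation, was 542, 559 and 626 CPM in wt/wt against 1199, 1483 and 1358 in flox/flox, a 2.22-fold rise (edgeR adjusted p = 0.00325). F11, of the intrinsic pathway, was 93.5, 88.7 and 78.1 and 163, 162 and 159 CPM, a 1.92-fold rise (edgeR adjusted p = 0.00345). The lowest flox/flox library was above the highest wt/wt library in both. Klkb1, which encodes plasma prekallikrein, and Kng2, a kininogen gene, rose 1.90-fold and 1.86-fold. Of 24 complement genes 13 rose and 0 fell (median 0.49). They covered the lectin pathway with Masp1 (129, 115 and 129.62 against 217, 252 and 231 CPM), the classical pathway with C1s1 (407, 369.8 and 389 against 734, 669 and 640.4) and the terminal pathway with Hc, the C5 gene (1314, 1154 and 1256 against 3108, 2492 and 2033). C3, on which the pathways meet, was 7680.3, 7695 and 14677 CPM in wt/wt against 18719.5, 26777 and 20795 in flox/flox, a 1.99-fold rise (edgeR adjusted p = 0.015). In wt/wt replicate 3 C3 stood well above the other wt/wt libraries and yet under every flox/flox library. With the length trend removed 19 coagulation and 16 complement genes rose. With flox/flox replicate 1 left out the rises numbered 9 and 4, with wt/wt replicate 3 left out 10 and 10, with library size alone 8 of each rose and 1 complement gene fell, and without both libraries of contradicted sex 4 coagulation and 0 complement genes rose.

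Acute phase proteins, which the liver secretes in inflammation, gave 8 of 29 higher and 0 lower. Cp, the ceruloplasmin gene, was 1168, 1113 and 1550.3 CPM in wt/wt against 2749, 2891 and 2359.9 in flox/flox, and Lbp, which encodes the lipopolysaccharide binding protein, 57.1, 65.1 and 139 and 172, 216 and 168. The count was 0 with flox/flox replicate 1 left out, 1 with wt/wt replicate 2 left out, 3 with wt/wt replicate 1 left out and 1 with library size alone. The serum protein genes with the greatest rise in CPM by the naming rule were Apob, C3, Pzp, Ahsg, Mug1, Gc and Fn1. Apob, the structural protein of very low density lipoprotein, was 10749, 10909 and 10306 CPM in wt/wt against 27178, 33553 and 23876 in flox/flox, a 2.64-fold rise (edgeR adjusted p = 0.00519). It was 31827 and 32493 CPM in wt/flox, within the range of flox/flox. Mttp, the transfer protein that loads Apob with lipid, rose 1.69-fold from 310.1, 346 and 363 to 599, 677 and 456 CPM, and the receptor gene Lrp1 2.25-fold. The small apolipoprotein genes Apoa2 and Apoc1 fell, Apoa2 from 3169.5, 3419 and 2809.9 to 1993, 2212 and 2227 CPM and Apoc1 from 1762, 1773 and 1542 to 763, 711 and 1107. In all 6 of 25 genes of apolipoproteins and lipoprotein assembly rose and 3 fell, and with the length trend removed 10 rose and 0 fell. Leaving out flox/flox replicate 1 gave 3 and 1, and leaving out wt/wt replicate 1 or 2 gave 2 and 1.

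**Figure D4:**
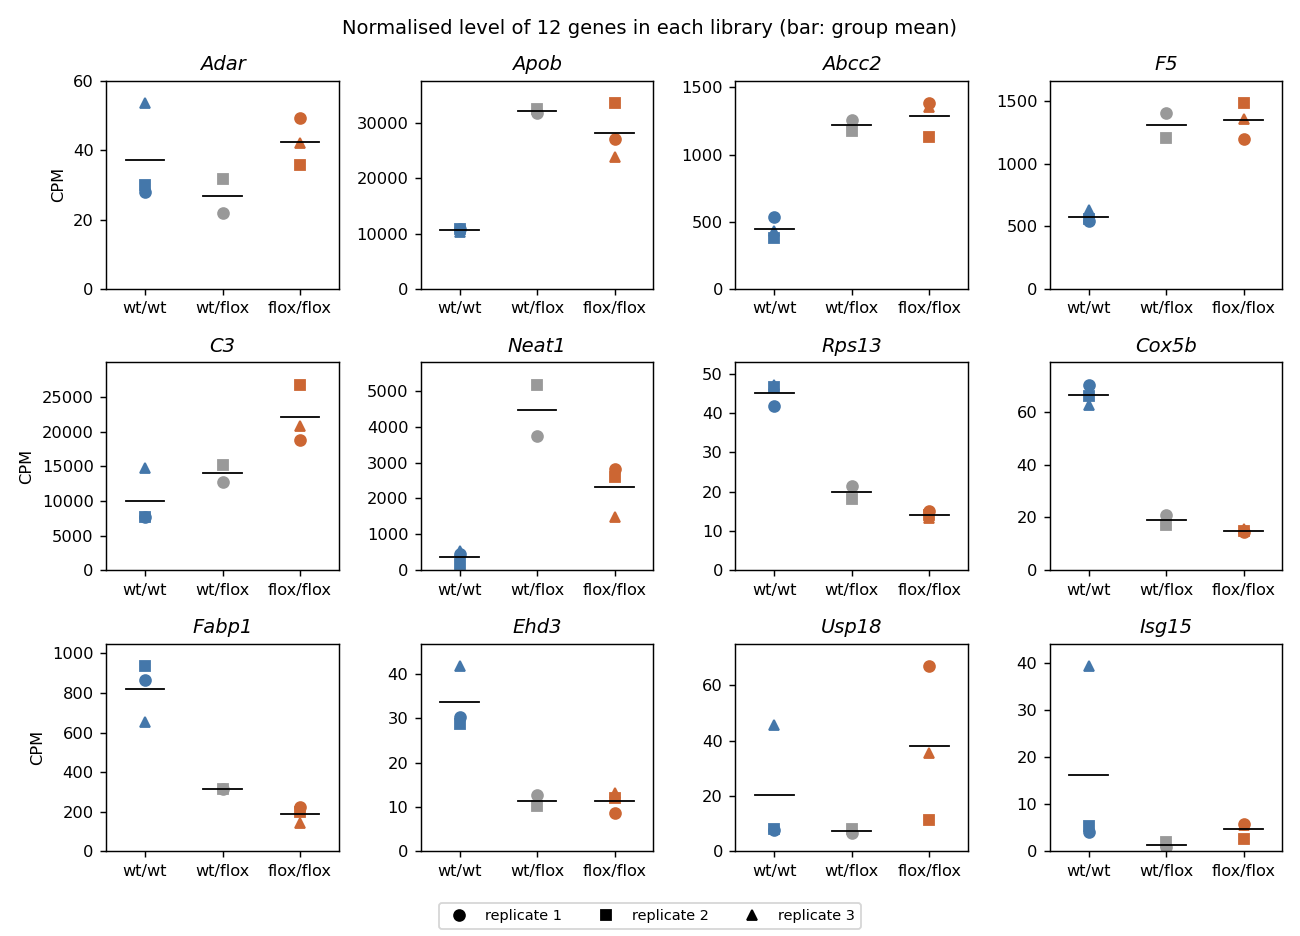
Normalised level in CPM (vertical axis, linear from 0) of 12 genes in each library by genotype, with symbols for the replicate number and a bar at each group mean. Apob, Abcc2, F5, C3 and Neat1 lie higher in all 3 flox/flox libraries than in all 3 wt/wt libraries, Rps13, Cox5b, Fabp1 and Ehd3 lower, and Adar, Usp18 and Isg15 overlap.

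Membrane transporters of the canalicular and sinusoidal faces were higher in flox/flox in 18 of 24 cases and lower in 0 (median log2 fold change 0.73). Abcc2, which exports bilirubin glucuronides into bile, was 534, 376 and 429.7 CPM in wt/wt against 1382, 1129.8 and 1352 in flox/flox, a 2.96-fold rise (edgeR adjusted p = 0.00314). Abcg5 and Abcg8, the partners of the biliary sterol exporter, rose together: Abcg5 was 43.3, 28.6 and 40.7 against 102, 121 and 130.02 CPM and Abcg8 48.8, 37.1 and 36.5 against 119.8, 106 and 110.3. Abca1, which loads cholesterol onto high density lipoprotein, rose 2.09-fold, and Abcb11, the bile salt export pump gene, 2.00-fold, from 519, 361 and 489 to 695, 1487 and 993 CPM. The uptake carrier gene Slco1b2 rose as well, from 1108, 976 and 963 to 1536, 1911 and 1654 CPM. Slco1a1, a male-biased uptake carrier, was called higher, but its level goes with sex (633, 788 and 81.6 against 939.5, 194 and 145 CPM), and its fitted change was -0.23 without the sex term. By rule the amino acid transporter gene Slc7a2 (706, 531 and 679 against 2540.2, 1334 and 1734 CPM) and the phosphate transporter gene Slc20a1 (34.6, 20.4 and 26.7 against 88.7, 50.7 and 119.8) were also among the genes of largest rise. The count of transporters higher was 11 without wt/wt replicate 3, 11 with library size alone and 4 without both libraries of contradicted sex.

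Drug-metabolizing enzymes of the P450 and glucuronosyltransferase families were higher in part. Of 63 tested genes of P450 families 1 to 4, 20 rose and 1 fell, Cyp4b1 (median 0.71). Cyp2a12 was 509, 505 and 547 CPM in wt/wt against 858, 906 and 864 in flox/flox (edgeR adjusted p = 0.00563). Cyp1a2 and Cyp2e1, named for their place in pericentral hepatocytes after their values were seen, were 335, 358 and 323 against 554, 512 and 569 CPM and 2235, 2177 and 1930.3 against 3074, 3280.4 and 3095. Glul, another gene of pericentral hepatocytes, fell, as given below, so no change of that zone is read from these rises. Cyp2a5, Cyp4a31 and Cyp3a59 rose 3.19-fold, 2.97-fold and 2.90-fold and have near-identical relatives, so their values are uncertain. The count of P450 genes higher was 10 with flox/flox replicate 1 left out, 12 with wt/wt replicate 2 or 3 left out, 6 with library size alone and 28 with the length trend removed. Among the 55 conjugating enzymes 12 rose and 8 fell, and all 12 that rose were UDP-glucuronosyltransferases. Ugt1a1, which conjugates bilirubin, was 145, 171 and 262 CPM in wt/wt against 301, 600.3 and 468 in flox/flox, a 1.97-fold rise (edgeR adjusted p = 0.00508). Several of the 12 are Ugt1a genes, which share their last exons. Single members of that cluster are therefore uncertain, and their rises need not be separate. Those that fell were glutathione transferases and sulfotransferases, such as Gsta3 (1.86-fold lower) and Gstp1 (1509.7, 1236 and 141 against 603, 65.1 and 81.2 CPM), a male-biased gene of mouse liver whose groups overlap. In this list 4 rose and 4 fell with flox/flox replicate 1 left out, 8 and 6 with wt/wt replicate 2 left out, and 7 and 15 with library size alone.

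Several genes of fatty acid use were lower in flox/flox. Of 34 genes of fatty acid oxidation and ketogenesis 13 fell and 1 rose (median -0.37). Fabp1, the main fatty acid binding protein of liver, was 866, 937 and 656 CPM in wt/wt against 227, 201 and 145 in flox/flox, a 3.88-fold fall (edgeR adjusted p = 0.00177). Etfa and Etfb, the subunits of the electron transfer flavoprotein, were 223, 240.4 and 204 against 119.6, 125 and 116 CPM and 182, 208 and 181 against 87.7, 109 and 85.05. Pdk4, which restrains pyruvate oxidation in fasting, fell 3.64-fold. The gene that rose was Cpt1a, the gate for fatty acid entry into mitochondria, at 249, 235 and 287 against 584, 396 and 435 CPM (edgeR adjusted p = 0.0185). The list gave 5 lower without flox/flox replicate 1 and 20 lower with library size alone. In amino acid catabolism with the urea cycle 12 of 40 genes fell and 2 rose. Within the urea cycle the first enzyme gene, Cps1, rose (7028, 5832 and 8649 against 13007, 12687 and 14085 CPM), while Otc (462, 396 and 331 against 268, 265 and 265), Ass1 (168, 123 and 129.95 against 42.5, 58.4 and 63.99) and Arg1 (1069.7, 1141 and 936 against 772, 648 and 711) fell. Glul, the glutamine synthetase of pericentral hepatocytes, fell 2.18-fold from 321, 428 and 465 to 189.8, 236 and 151 CPM. These falls numbered 1 with flox/flox replicate 1 left out, 6 with any 1 wt/wt library left out, and 6 with the length trend removed.

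Among 31 genes of glucose metabolism 5 rose and 8 fell. Slc2a2, the hepatocyte glucose transporter gene, was 293, 229 and 268 CPM in wt/wt against 573, 597 and 651 in flox/flox (edgeR adjusted p = 0.00348), and Slc37a4 and G6pc, which release glucose from glucose 6-phosphate, rose 2.08-fold and 1.56-fold. Glycolytic enzymes were among those that fell, such as Pgam1 (69.7, 79.8 and 64.9 against 44.5, 37.8 and 34.1 CPM). Gapdh fell as well (1.80-fold) but has many processed pseudogenes and is uncertain. The counts were 2 and 3 with flox/flox replicate 1 left out, and 2 and 14 with library size alone. Of 26 genes of cholesterol synthesis and its control 4 fell and 3 rose, against 14.6% and 14.5% of all genes tested, so nothing is read from these counts. The enzyme genes Pmvk (2.86-fold), Fdps (1.91-fold), Acat2 and Hmgcs1 fell, and Scap and Srebf2, which act in sterol sensing, were among those that rose. Hmgcs1 was 1516, 1738 and 1625 CPM in wt/wt against 656, 1232 and 935 in flox/flox, and 451 and 315 in wt/flox, below both groups. Leaving out any 1 wt/wt library left 0 sterol genes higher, leaving out flox/flox replicate 1 left 1 lower, and leaving out flox/flox replicate 2 gave 1 higher and 6 lower.

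Of 17 nuclear long noncoding RNAs 6 rose and 1 fell. Xist and its antisense partner Tsix, whose levels go with sex, are among the 6. Neat1 (chromosome 19, 5824708 to 5845478), the scaffold of paraspeckles, was 454, 162 and 522 CPM in wt/wt against 2826, 2604 and 1493 in flox/flox, a 6.00-fold fitted rise (edgeR adjusted p = 0.00866). It was higher still in wt/flox, at 3748 and 5176 CPM. Malat1 (chromosome 19, 5795690 to 5802672), of nuclear speckles, was 4144, 2275 and 4709 and 9219, 9500.2 and 10970.0 CPM, and the imprinted antisense transcript Kcnq1ot1 93, 49.4 and 75.8 and 153, 225 and 201. Snhg8 fell and the snoRNA host Snhg17 rose. With flox/flox replicate 1 left out the list gave 1 higher and 0 lower. Rpph1 (chromosome 14, 50807449 to 50807767), the catalytic RNA of RNase P, fell 6.55-fold, from 1804, 2405 and 2617 to 304, 343 and 503 CPM (edgeR adjusted p = 0.00177). Rmrp (chromosome 4, 43492783 to 43493063), the related RNA of RNase MRP, fell 2.498-fold, from 583, 854 and 903 to 298, 325 and 374 CPM. Rn45s, the precursor of ribosomal RNA, was 18210.0, 23304 and 29121 CPM in wt/wt against 51016, 50606 and 44249 in flox/flox (2.00-fold, edgeR adjusted p = 0.0201). The libraries were depleted of ribosomal RNA, so this level depends on the depletion too, which was not tested.

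Reads at most miRNA and snoRNA loci within introns changed more upward than the exon reads of their host genes. The pattern was noticed in these data and the loci below were chosen after their values were seen. Of 1180 miRNA genes in the files 165 passed the filter, which many pass through the flox/flox libraries alone, so the comparison was restricted to loci with at least 10 reads in every wt/wt library. Of 31 such miRNA loci lying in an intron of a tested host on the same strand (GENCODE M21, GRCm38), 29 had a larger fitted log2 fold change than the host, 18 were called higher and 0 lower. The medians were 1.46 at the loci and 0.22 in the hosts. Of 17 such snoRNA loci 15 lay above the host, with medians of 1.08 and -0.14. The 2 such scaRNA loci went the other way: Scarna13 fell by 2.01 on the log2 scale while its host Snhg10 was at -0.27, and Scarna6 fell by 0.79 while its host Atg16l1 was at 0.37. The mature sequences, from RefSeq (GRCm38.p6) with the seed (bases 2 to 8) in capitals, are shown for 3 of the miRNAs to identify the loci, and the 3 seeds differ.
miR-7a-5p, of Mir7-1 (chr13:58392779-58392886, minus strand): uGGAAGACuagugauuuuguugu
miR-186-5p, of Mir186 (chr3:157544279-157544349, plus strand): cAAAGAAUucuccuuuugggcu
miR-101b-3p, of Mir101b (chr19:29135279-29135375, plus strand): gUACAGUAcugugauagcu
Mir7-1 lies in an intron of Hnrnpk, which fell, and the locus rose: it was 0.264, 0.203 and 0.283 CPM in wt/wt against 0.933, 1.03 and 1.123 in flox/flox (26, 24 and 31 reads against 84, 115 and 148), while Hnrnpk was 202, 222 and 212 and 166, 146 and 143 CPM. Its fitted log2 fold change was 1.96 (SE 0.30, edgeR adjusted p = 0.00522), against -0.45 (SE 0.12) for the host. Mir186, in Zranb2, was 0.162, 0.186 and 0.219 and 0.733, 0.858 and 0.713 CPM, and Mir101b, in Rcl1, 0.507, 0.380 and 0.584 and 1.38, 1.32 and 1.75, and neither host passed the threshold. The snoRNA locus AF357399 in Rps16 rose by 1.98 while Rps16, a ribosomal protein gene, fell by 1.01. Reads counted at a hairpin in these libraries of fragmented total RNA can come from the intron of the host's precursor as well as from the hairpin, and mature miRNAs are shorter than such fragments. Reads in no gene, which include intronic reads outside annotated loci, were also more frequent in flox/flox, as given above, and their part in this pattern was not tested. The wt/flox libraries had 1.11 and 0.838 CPM of Mir7-1. The counts that follow, over all tested miRNA and snoRNA genes, can include loci that pass the filter through flox/flox alone. They describe those loci, and no direction is read from them. Among all tested genes 14.5% were higher and 14.6% lower. Over all tested miRNA genes the calls were 39 higher and 4 lower. They were 5 and 3 with flox/flox replicate 1 left out, 15 and 3 with wt/wt replicate 2 left out, 26 and 0 with wt/wt replicate 3 left out, and 6 and 6 with the length trend removed. Over all tested snoRNA genes the calls were 17 higher and 0 lower, with a median log2 fold change of 0.87. With the length trend removed the snoRNA calls were 5 and 3 and the median was 0.09. They were 2 and 1 with flox/flox replicate 1 left out, and 8 and 0 with wt/wt replicate 2 left out.

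**Figure D5:**
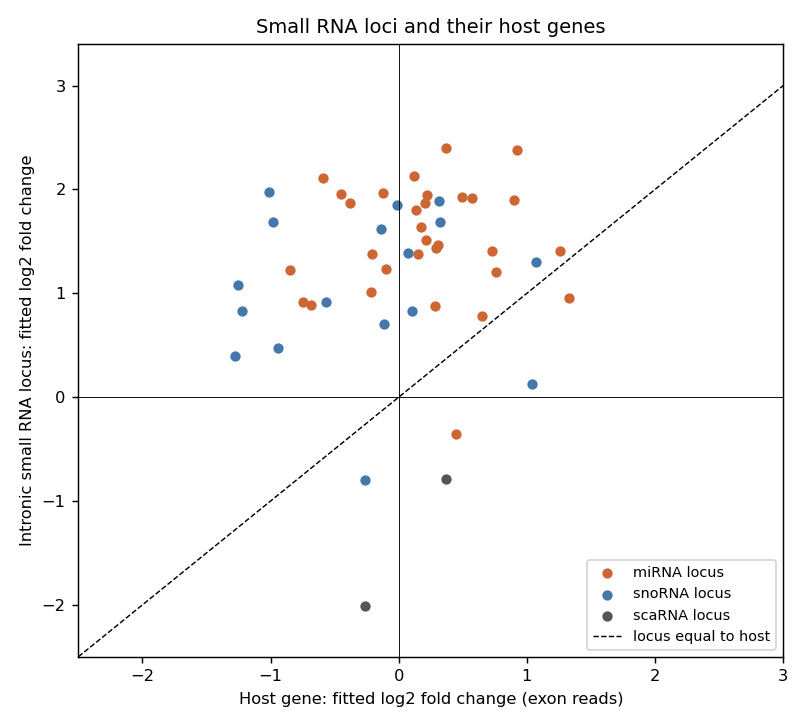
Fitted log2 fold change of flox/flox over wt/wt at small RNA loci with at least 10 reads in every wt/wt library (vertical axis) against that of the gene in whose intron they lie (horizontal axis). Of the 31 miRNA points 29 lie above the dashed line of equal change, and 15 of the 17 snoRNA points do.

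No interferon-stimulated gene was called. Of 45 tested members edgeR called 0 in either direction (1 had an unadjusted p under 0.05, median log2 fold change 0.02), as did DESeq2, while limma-voom called 1 lower. Their sum was 1269, 1413 and 3485 CPM in wt/wt against 2613, 1539 and 2223 in flox/flox. Within each group the libraries differed more than the groups did, with wt/wt replicate 3 and flox/flox replicates 1 and 3 on the high side. Ifit1, a cytosolic RNA binding effector, was 7.45, 9.28 and 91.7 and 28.1, 9.32 and 23.1 CPM, and Oasl2, of the oligoadenylate synthetase family, 0.568, 0.693 and 30.8 and 13.3, 0.786 and 6.13. These genes were picked after their values were seen, whereas the naming rule gives Ifi35 (log2 fold change -0.64, edgeR adjusted p = 0.0916) and Parp14 (0.80, adjusted p = 0.141). Single libraries moved the count. With wt/wt replicate 3 left out 15 members were higher and 1 lower, with flox/flox replicate 1 left out 6 were lower, with the labelled sex 4 were lower, and without both libraries of contradicted sex 7 were lower. In wt/flox, Ifit1 was 3.83 and 5.45 CPM.

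Of 29 genes of double-stranded RNA sensing and the cell death that follows it 1 was called, Sting1, which fell from 0.355, 0.355 and 1.07 to 0.155, 0.331 and 0.501 CPM (edgeR adjusted p = 0.029). That level is low, and Sting1 encodes an adaptor of DNA sensing expressed mainly by non-parenchymal cells. Eif2ak2, the gene of PKR, was 22.04, 26.7 and 42.2 CPM in wt/wt against 37.6, 24.8 and 26.4 in flox/flox, and Zbp1 was 3.92, 4.97 and 28.5 and 7.45, 6.54 and 13.4. Their log2 fold changes were -0.05 (SE 0.28) and -0.40 (SE 0.53), and the edgeR adjusted p was 0.913 and 0.593. Mlkl, which executes necroptosis downstream of Zbp1, was 3.47, 3.33 and 7.82 and 6.74, 3.33 and 7.14 CPM. Without wt/wt replicate 3, 4 genes of this list were higher and 0 lower.

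The series title names progranulin and EGFR. Grn (chromosome 11, 102430315 to 102437048), the progranulin gene, was 102, 113 and 199 CPM in wt/wt against 192, 230.4 and 215 in flox/flox, where wt/wt replicate 3 lay within the flox/flox range (log2 fold change 0.50, SE 0.17, edgeR adjusted p = 0.0592). Of 22 genes of progranulin's partners, lysosomal enzymes and TNF receptors 8 rose and 1 fell. Ctsb, a lysosomal protease gene, was 371, 402 and 556 and 629.9, 843 and 824 CPM, Tmem106b, of the lysosomal membrane, 244, 253 and 239 and 431, 446 and 373, and Tnfrsf1a, the receptor TNFR1 to which progranulin can bind, 57.9, 53.5 and 57.6 and 82.7, 79.8 and 87.2. Sort1, the sorting receptor that takes up progranulin, rose 1.93-fold (edgeR adjusted p = 0.0405). The number of rises was 2 with flox/flox replicate 1 left out, 3 with wt/wt replicate 2 left out, 5 with wt/wt replicate 1 left out and 1 with library size alone.

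Egfr was 1401, 778 and 846 CPM in wt/wt against 2438, 854 and 551 in flox/flox (fitted change 0.45 on the log2 scale, SE 0.39; edgeR adjusted p = 0.413), with flox/flox replicate 1 the highest and replicate 3 the lowest of the 6. Of 33 genes of the EGFR family, its ligands and its feedback 11 rose and 1 fell, the adaptor gene Grb2. The related genes Lrig1, Lrig2 and Lrig3 rose 1.73-fold, 2.02-fold and 2.06-fold, Lrig2 from 13.6, 13.6 and 14.4 to 30.1, 25.2 and 28.1 CPM. The sheddases Adam10 and Adam17, which release EGFR ligands, were 33.7, 34.96 and 39.97 against 61.3, 62.3 and 50.4 and 18.4, 19.8 and 24.7 against 33.7, 40.9 and 32.1 CPM. The rises numbered 5 with the length trend removed, 4 with flox/flox replicate 1 left out, 5 with wt/wt replicate 2 left out, 7 with wt/wt replicate 3 left out and 2 with library size alone.

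Cell cycle genes were low and higher in flox/flox in 15 of 43 cases, with 0 lower. Ccna2, the cyclin of S and G2 phase, was 0.984, 0.778 and 1.61 CPM in wt/wt against 2.82, 3.20 and 4.32 in flox/flox (edgeR adjusted p = 0.00781). Mki67, the proliferation marker, was 2.44, 1.34 and 6.86 and 5.40, 11.7 and 17.2 CPM, where wt/wt replicate 3 lay above flox/flox replicate 1. With flox/flox replicate 1 left out 0 cell cycle genes were called, with wt/wt replicate 2 left out 8, with flox/flox replicate 3 left out 10, and 6 rose with library size alone. Of 35 genes of the basement membrane and matrix 8 rose and 0 fell, among them Lamc1 (12.9, 13.8 and 15.7 against 25.7, 25.8 and 28.8 CPM), Agrn (32.9, 33.8 and 48.3 against 87.1, 80.2 and 77.7) and Fn1, plasma fibronectin (1656, 1817 and 2509 against 3425, 5118 and 4442). The list as a whole was not raised: its median log2 fold change was -0.17, against 0.01 over all tested genes. Nid1 rose as well, and its flox/flox libraries were spread (8.02, 6.45 and 22.5 against 23.5, 36.4 and 61.4 CPM). Leaving out flox/flox replicate 1 gave 4 matrix genes higher, leaving out wt/wt replicate 3 gave 5 higher and 2 lower, leaving out flox/flox replicate 3 gave 8 and 5, and library size alone gave 4 and 3.

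Of 37 transcription factors and nuclear receptors 1 rose, Nr1i3, the xenobiotic receptor CAR (44.1, 42.6 and 68.5 against 70.97, 116 and 115 CPM), and 2 fell, the oxysterol receptor gene Nr1h3 (63.1, 75.96 and 67.6 against 44.8, 55.3 and 38.9) and Ppard. With any 1 library left out 1 to 3 rose and 0 to 4 fell, the most without wt/wt replicate 1 and without wt/wt replicate 3, and 11 fell with library size alone. Among 25 targets of ATF4 3 fell, such as Atf5 (230.2, 281 and 344 against 108, 168 and 95.6 CPM), and 0 rose. Of 26 genes of endoplasmic reticulum chaperones and the unfolded protein response 3 rose, such as the sensor gene Ern1 (64.9, 56.4 and 72.1 against 134, 141 and 109.5 CPM), and 2 fell, the translocon genes Sec61b and Sec61g. Of 27 targets of NRF2 2 rose and 5 fell, with the thioredoxin gene Txn1 at 102, 117 and 108 against 59.9, 50.3 and 43.9 CPM. With wt/wt replicate 3 left out the NRF2 counts were 7 and 2, and the rises in the unfolded protein response list numbered 10 with flox/flox replicate 3 left out, 4 with wt/wt replicate 3 left out, 0 with flox/flox replicate 1 left out and 1 with any other library left out. The ATF4 list gave 2 to 4 lower and 0 to 2 higher with 1 library left out. The p53 targets gave 2 higher, Mdm2 and Polk, and 3 lower of 23, and immediate early genes, which respond to cell isolation, 1 higher, Dusp1, and 1 lower, Klf2, of 29. With 1 library left out the p53 list gave 4 higher without wt/wt replicate 3 and 1 without any other, and 1 to 3 lower. The immediate early list gave 0 to 1 higher and 0 to 3 lower, the most without flox/flox replicate 2. Over all tested genes 14.5% rose and 14.6% fell, so nothing is read from the counts of these regulator and stress lists.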

How the data were processed

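RNA of liver cells from 8 mice was sequenced as strand-specific libraries depleted of ribosomal RNA, per the labels' protocols. The deposited tables hold the authors' raw read counts per gene symbol on the sense and the antisense strand. The genome was GRCm38 (mm10), per the submitters' processing notes, which also name DESeq2. Which aligner, counting program and annotation were used is not given in the sources used here. Sense counts were used, without the 5 rows that name no gene. Reads in no gene are given as a share of sense reads placed once, and alignments to several places as a share of these and such alignments. Genes passing edgeR's filterByExpr were tested in 1 model of all 8 libraries (group and sex by transcripts, TMM, quasi-likelihood F test, 4 residual degrees of freedom) with edgeR 4.0.16 in R 4.3.3. The comparison is flox/flox over wt/wt, and calls have a Benjamini-Hochberg adjusted p under 0.05. The code was tested on simulated counts, where it recovered few of the smaller changes.

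Gene coordinates and exon lengths are from GENCODE M21, matched by symbol for 24366 of 25229 symbols (96.6%). Alternatives were other size factors, other filters, DESeq2 1.42.0, limma-voom (limma 3.58.1), other sex terms, a replicate block, fewer libraries, both strands together and removal of the trend with exon length. The members and the gene lists were chosen with earlier results of these data known. Genes were named by a rule: Adar, Ifih1, Grn and Egfr; the 10 of largest fold and the 10 of largest CPM difference each way among called genes without overlap, the former with at least 20 CPM in the higher group and both without predicted genes, clones, pseudogenes and small RNAs; and in each list up to 4 called members of smallest adjusted p, or, where none was called, up to 2 of smallest p. Xist and 4 Y-linked genes were added to check sex. Every gene named outside the rule was chosen after its values were seen. Lists were described by counts and medians, with no test of a list.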

Additional observations from a re-analysis of the deposited data

Results flagged for a closer look

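Antisense reads, which no comparison above uses, made up 7.65% ± 0.114 (SD, n = 3) of gene reads in flox/flox and 7.35% ± 0.171 (SD, n = 3) in wt/wt. They drew attention because the flox/flox libraries (7.58% to 7.78%) all lay above the wt/wt libraries (7.17% to 7.51%). The exact permutation test gave p = 0.1 (two-sided, n = 3), the smallest value that 3 against 3 allows, and 0.14 after Benjamini-Hochberg adjustment over 7 library measures. Batch and genotype cannot be told apart here.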

How the results depend on the processing

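Batch and genotype cannot be told apart under any alternative. Counts of genes higher and lower moved from 2139 and 2143 to 691 and 4159 with library size alone, and to 356 and 698 without the libraries of contradicted sex, which leaves 1 flox/flox library, assumed to vary like the other groups. Leaving out 1 library gave 801 to 1895 higher and 1010 to 2005 lower, and wt/wt replicate 2, wt/wt replicate 3 and flox/flox replicate 1 each moved a count by over 1.5 times. Same-numbered libraries share a labelled age. Their deviations correlated at 0.29, 0.02 and 0.45 for replicates 1, 2 and 3, so the numbers were not taken as pairs, and not every library correlated best with its own number. The replicate block gave 792 higher and 994 lower with sex by transcripts, and 2291 and 2503 without a sex term. All other alternatives stayed within 1.5 times, from 1538 to 2477 higher and 1635 to 2518 lower.

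Of 4338 combinations of a named gene and an alternative 3725 kept their side of the threshold, 594 lost the call and 11 gained it, and 25 had the other sign. Of these 25, 17 were in genes not called: Adar (4), Egfr (2), Parp14 (1), Ddx3y (6) and Eif2s3y (4). The other 8 were in genes that were called, all with a changed or dropped sex term: Kdm5d (log2 fold change -0.0691 with the labelled sex, -0.14 with no sex term and -1.10 with the block and no sex term), Uty (-0.98 with the block and no sex term), Slco1a1 (-0.23 with no sex term and -0.0908 with the block and no sex term) and Sult3a1 (2.14 with the labelled sex and 1.47 with the block and no sex term). The cause of these changes was not tested. Few reads limit loci such as Mir7-1, with 24 to 148 reads in the libraries compared.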

Other observations

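Some genes of low level had large differences between the genotypes. They were chosen after their values were seen. Malrd1, a gene linked to bile acid metabolism, had 0, 0 and 0 reads in wt/wt against 3, 38 and 47 in flox/flox, at least 28.7-fold higher when a total of 3 reads over the 3 libraries is taken as the floor, with flox/flox replicate 1 far below the others. Igf2bp3, a fetal RNA binding protein, had 6, 7 and 5 reads in wt/wt against 38, 133 and 814 in flox/flox (log2 fold change 4.45, edgeR adjusted p = 0.0199). Col4a3, a basement membrane collagen gene, had 10, 11 and 69 reads in wt/wt against 28, 431 and 3412 in flox/flox, where flox/flox replicate 1 lay below wt/wt replicate 3.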
